A study of Mus musculus with 10 samples.

Results

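The genes described here encode the AMP-activated protein kinase (AMPK), the kinase that switches it on and the PGC-1 coactivators. They are the catalytic subunits Prkaa1 and Prkaa2, the β subunits Prkab1 and Prkab2, the γ subunits Prkag1, Prkag2 and Prkag3, the upstream kinase Stk11, and the coactivators Ppargc1a and Ppargc1b. They were taken by name from the expression table, 10 of its 21959 genes, and each name occurred once among them. RNA was sequenced from 10 tumors that grew from 4T1, a line of mouse mammary carcinoma that stands for triple-negative disease. The cells had been injected under the skin of the abdomen of BALB/c mice that were 5 to 6 weeks old when obtained. The exercise group (E, 5 tumors) had access to a running wheel for 21 days and ran voluntarily, and the non-exercise group (NE, 5 tumors) was kept without this exercise over the same 21 days. All tumors came from the same line in the same strain, and no gene was altered in either group. Single tumors are named by group and replicate number, for example NE4.

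AMPK is a sensor of cellular energy that is built from a catalytic α, a scaffolding β and a nucleotide-binding γ subunit, and each is encoded by more than 1 gene. When ATP runs low, AMP binds the γ subunit and LKB1, the product of Stk11, phosphorylates the α subunit, after which the kinase slows lipid and protein synthesis and favors fuel oxidation. PGC-1α, the product of Ppargc1a, is a transcriptional coactivator of mitochondrial genes that is induced by exercise in skeletal muscle, and PGC-1β is its relative. Skeletal muscle is rich in the isoforms encoded by Prkaa2, Prkab2 and Prkag3, while Prkaa1, Prkab1 and Prkag1 are used by most cell types. For this reason each gene was read against Acta1, the actin of skeletal muscle fibers, and Ckm, the muscle creatine kinase, so that genes of general use could be separated from those that followed muscle reads.

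The sequences upstream of the transcription start are given for the 3 genes of the group with the steepest slopes on muscle reads (below), Prkaa2, Prkag3 and Ppargc1a. They are 250 bases from RefSeq on GRCm38.p6, written 5′ to 3′ on the strand of the gene and ending at the RefSeq start. For Prkag3 these bases lie within the gene as annotated on GRCm38, whose 5′ end is at 74749221. Capitals mark E-boxes, CANNTG, which are bound by myogenic factors of the MyoD family among others, and the core TGACG of the cyclic AMP response element on either strand.
Prkaa2 (chr4:105109899-105110148, minus strand): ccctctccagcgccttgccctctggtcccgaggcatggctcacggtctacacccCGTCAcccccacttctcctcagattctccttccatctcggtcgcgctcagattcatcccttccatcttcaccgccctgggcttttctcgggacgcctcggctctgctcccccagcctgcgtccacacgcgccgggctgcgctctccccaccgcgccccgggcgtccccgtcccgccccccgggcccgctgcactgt
Prkag3 (chr1:74748956-74749205, minus strand): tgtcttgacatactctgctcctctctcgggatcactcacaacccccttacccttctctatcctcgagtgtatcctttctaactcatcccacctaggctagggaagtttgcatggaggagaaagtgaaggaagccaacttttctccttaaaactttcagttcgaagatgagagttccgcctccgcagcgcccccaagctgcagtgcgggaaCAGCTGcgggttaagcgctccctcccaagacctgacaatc
Ppargc1a (chr5:51567726-51567975, minus strand): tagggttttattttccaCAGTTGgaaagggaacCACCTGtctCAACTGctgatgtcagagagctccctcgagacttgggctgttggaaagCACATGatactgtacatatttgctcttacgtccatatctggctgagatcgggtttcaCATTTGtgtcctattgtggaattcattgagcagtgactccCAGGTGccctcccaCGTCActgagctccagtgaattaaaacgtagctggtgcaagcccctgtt

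RefSeq gave a promoter for 9 of the 10 genes, and with alternative starts there were 11 promoters. Matches were counted on both strands from 250 bases before to 50 bases after the start. The promoter of Ppargc1a held 6 E-boxes and that of Prkag3 held 1, while that of Prkaa2 held none. E-boxes also occurred in the promoters of Stk11 (2 matches), of Prkag1 (1 match) and of Prkag2, and 72.3% of 32851 mouse promoters of this length held at least 1. The core TGACG occurred once each in Prkaa2, Ppargc1a, Stk11 and Prkag1, against 20.8% of all promoters, and the full element TGACGTCA, which contains this core on both strands, was in none of the 11. The estrogen-related receptor element AAGGTCA was found once, in a promoter of Prkag2 (4.72% of all promoters). The TATA box TATAAA (13.6%) and the MEF2 core (3.69%) were in none of them. The promoters of Prkaa1, Prkab1 and Prkab2 held no match to any of the 6 motifs.

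The libraries held 15045613 to 20646763 counted reads in E, with a median of 18645694, and 18706032 to 23092251 in NE, with a median of 22723771. FPKM is the read count divided by gene length and total count, and it was used to compare levels between genes. CPM scales the count to the total count of the tumor, with the TMM factor of edgeR unless stated, and it was used to compare tumors. NE4 stood apart from the other tumors by its muscle reads. The 12 genes of a fast skeletal muscle list took 2.92% of its reads, against 0.439% in E2, the next highest, and 0.00071% in NE1, the lowest. Acta1 had an FPKM of 291, 800, 63.7, 110 and 107 in E1 to E5 and of 1.07, 199, 326, 4023 and 26.3 in NE1 to NE5. Ckm had an FPKM of 20.2, 73.0, 3.63, 7.53 and 7.23 in E1 to E5 and of 0.0149, 13.1, 25.6, 540 and 1.204 in NE1 to NE5. Both groups thus spanned a wide range of muscle reads and overlapped, with the highest and the lowest tumor both in NE. In pieces of whole tissue, fewer cells of a type and less RNA per cell cannot be told apart. Of the markers of carcinoma epithelium, Krt8 and Krt18, the keratin pair of simple epithelia, reached at most 0.618 and 1.46 FPKM in any tumor, Krt7 0.131 FPKM and Epcam 1.41 FPKM, and Cdh1 and Krt19 ranged from 1.42 to 4.44 and from 4.59 to 12.6 FPKM. Of these 6 markers 3 passed the filter on low counts, and their summed level was 19.7 to 28.9 CPM in E and 25.1 to 47.9 CPM in NE, so that the table lists defining markers of the labelled mammary carcinoma other than Cdh1 and Krt19 near 0. Whether its counting missed some of these genes is not known, since the fast muscle gene Tnnc2 also had at most 3 reads in any tumor, NE4 included.

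**Figure D1:**
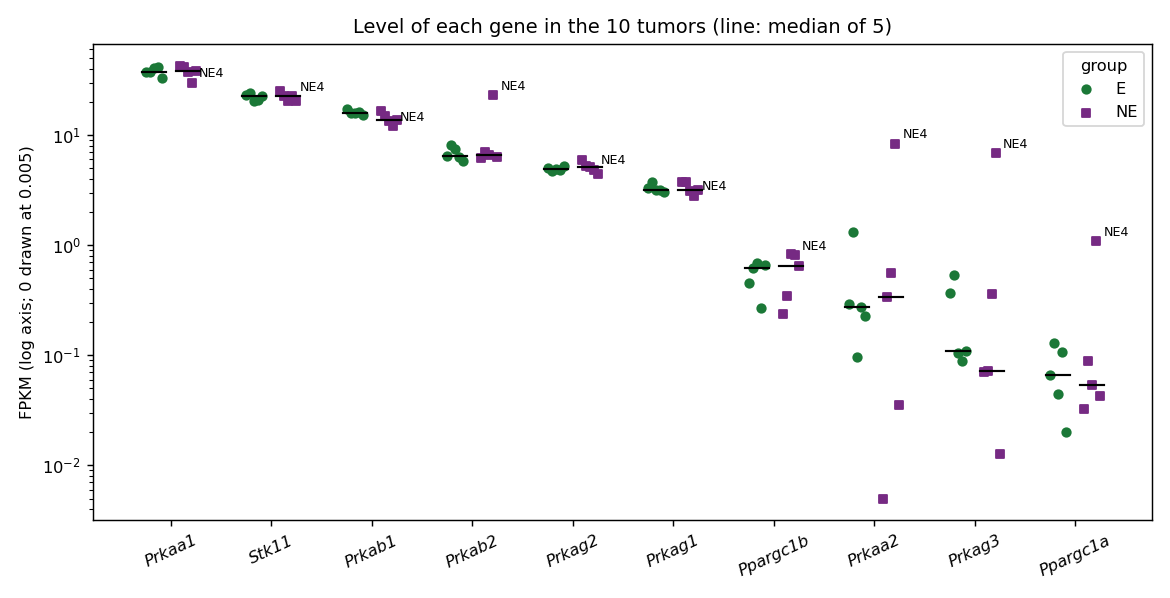
FPKM of the 10 genes in each tumor on a log axis, with green circles for E, purple squares for NE and a line at the median of 5 tumors. The value of 0 for Prkaa2 in NE1 is drawn at 0.005, and NE4 is far above the other tumors for Prkab2, Prkaa2, Prkag3 and Ppargc1a.

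Prkaa1, which encodes the catalytic α1 isoform, was the most abundant gene of the group. It had 37.4, 37.3, 40.7, 41.2 and 32.8 FPKM in E1 to E5 and 42.7, 41.4, 37.1, 29.8 and 38.1 FPKM in NE1 to NE5. The groups overlapped throughout, and the lowest tumor was NE4, at 0.781 times the median of the other 9. Its mean was 37.9 ± 3.34 FPKM in E and 37.8 ± 5.03 FPKM in NE (SD, n = 5 each). In the reference annotation GRCm38, Prkaa1 (ENSMUSG00000050697) lies on chromosome 15 from 5143861 to 5181899 on the plus strand, where the antisense gene Gm15938 overlaps it.

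Prkaa2, which encodes the α2 isoform of muscle and heart, was low in 9 tumors. It had 48, 195, 16, 41 and 27 reads in E1 to E5 (0.292, 1.31, 0.0974, 0.277 and 0.225 FPKM). In NE1 to NE5 it had 0, 50, 102, 1528 and 6 reads (0, 0.335, 0.563, 8.36 and 0.0352 FPKM). NE4 was 30.1 times the median of the other 9 tumors, E2 was the highest of E, and NE1, which had 1 read of Ckm, was the only tumor without a read of Prkaa2. With 0 reads, a level of up to 0.130 CPM is allowed in NE1 (3 reads of its total, counting error only). On the total count alone, the level in NE4 was 66.6 CPM (95% Wilson interval 63.3 to 70.0) and that in E2 was 10.5 CPM (9.09 to 12.03), so that the difference between these libraries was larger than the counting error. Prkaa2 (ENSMUSG00000028518) lies on chromosome 4 from 105029874 to 105109890 on the minus strand (GRCm38), and no annotated gene overlaps it.

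Prkab1, which encodes the β1 scaffold used by most tissues, had 17.2, 15.8, 16.0, 16.1 and 15.1 FPKM in E1 to E5. In NE1 to NE5 it had 16.5, 14.8, 13.5, 12.1 and 13.6 FPKM. E tumors lay at the upper end and NE4 was the lowest, but NE1 lay within the range of E. Prkab2, which encodes the β2 scaffold abundant in muscle, had 6.47, 8.04, 7.50, 6.36 and 5.79 FPKM in E1 to E5 and 6.25, 7.01, 6.57, 22.9 and 6.32 FPKM in NE1 to NE5. Prkab2 was thus well above 0 in every tumor, including NE1 with hardly any muscle reads, and only NE4 left the narrow range of the others, at 3.53 times their median. Prkab1 (ENSMUSG00000029513) lies on chromosome 5 from 116013586 to 116024508 on the minus strand, and Prkab2 (ENSMUSG00000038205) on chromosome 3 from 97658193 to 97673812 on the plus strand (GRCm38). The antisense gene Gm14508 overlaps Prkab1. At its 3′ end Prkab2 overlaps the protein-coding gene Gm17651 on the other strand, and the library kit is not described as marking strand.

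Among the regulatory γ subunits, Prkag1 and Prkag2 kept to a narrow range in all tumors. Prkag1, the general γ1 isoform, had 3.32, 3.72, 3.19, 3.20 and 3.02 FPKM in E1 to E5 and 3.72, 3.76, 3.10, 2.83 and 3.20 FPKM in NE1 to NE5. Prkag2, the γ2 isoform that is mutated in a glycogen storage disease of the human heart, had 5.02, 4.67, 4.89, 4.83 and 5.19 FPKM in E1 to E5 and 5.89, 5.23, 5.14, 4.86 and 4.39 FPKM in NE1 to NE5. The groups overlapped for both genes. Prkag1 (ENSMUSG00000067713) lies on chromosome 15 from 98812797 to 98831521 and Prkag2 (ENSMUSG00000028944) on chromosome 5 from 24862744 to 25100642, both on the minus strand (GRCm38), and each is overlapped by noncoding genes of the other strand.

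Prkag3, the γ3 isoform known from glycolytic skeletal muscle, was close to the limit of detection outside NE4. It had 28, 37, 8, 6 and 6 reads in E1 to E5 (0.368, 0.539, 0.105, 0.0879 and 0.108 FPKM). In NE1 to NE5 it had 6, 5, 30, 578 and 1 reads (0.0706, 0.0726, 0.359, 6.84 and 0.0127 FPKM). NE4 was 64.9 times the median of the other 9 tumors, the largest such ratio in the group, and the 3 tumors that came next, E2, E1 and NE3, were also those next to NE4 in Ckm. Prkag3 (ENSMUSG00000006542) lies on chromosome 1 from 74738922 to 74749221 on the minus strand (GRCm38), with no overlapping gene. Of the 3718 stretches of 50 bases in its transcripts, 37 occur in another gene (0.995%), and none occurs in another gene of the group.

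Stk11, the tumor suppressor kinase that phosphorylates AMPK, varied least. It had 23.2, 24.3, 20.5, 20.7 and 22.4 FPKM in E1 to E5 and 24.9, 22.6, 20.5, 22.5 and 20.3 FPKM in NE1 to NE5. Its coefficient of variation over 10 tumors was 7.52%, and its level in NE4 was 1.002 times the median of the other 9. Stk11 (ENSMUSG00000003068) lies on chromosome 10 from 80115803 to 80130682 on the plus strand (GRCm38), and its end overlaps the coding gene Cbarp on the other strand.

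Both coactivators were low. Ppargc1a had 9, 16, 6, 13 and 2 reads in E1 to E5 (0.0661, 0.130, 0.0442, 0.106 and 0.0202 FPKM). In NE1 to NE5 it had 5, 11, 8, 165 and 6 reads (0.0329, 0.0892, 0.0534, 1.09 and 0.0426 FPKM). Only NE4 had more than a handful of reads, 20.4 times the median FPKM of the other 9, and differences among the other tumors were mostly within the counting error. The 16 reads of E2 stood for 0.858 CPM of the total count (95% Wilson interval 0.528 to 1.39). Of the 9 tumors, E2 was apart from E5 (0.0365 to 0.485) and NE1 (0.0925 to 0.507) by these intervals, and each other pair overlapped. Ppargc1a (ENSMUSG00000029167) spans 113477 bases of chromosome 5, from 51454250 to 51567726 on the minus strand (GRCm38). The annotated genes Gm42614, Gm42615 and Gm43605 on its own strand and Gm42613 on the other overlap it.

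Ppargc1b had 0.449, 0.618, 0.693, 0.270 and 0.666 FPKM in E1 to E5 and 0.239, 0.348, 0.827, 0.808 and 0.644 FPKM in NE1 to NE5. It rested on 20 to 75 reads per tumor, and NE4 did not stand out, at 1.31 times the median of the other 9. Ppargc1b (ENSMUSG00000033871) lies on chromosome 18 from 61298136 to 61400431 on the minus strand (GRCm38) and hosts the microRNA gene Mir378a.

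By the median FPKM over 10 tumors the order of the levels was Prkaa1, Stk11, Prkab1, Prkab2, Prkag2, Prkag1, Ppargc1b, Prkaa2, Prkag3 and Ppargc1a. Each of the first 6 steps in this order held beyond the spread between tumors (exact two-sided sign-flip permutation test of log2(FPKM + 0.01), adjusted p at most 0.00586 over 9 neighboring pairs). Prkab1 was higher than Prkab2 in 9 tumors and lower in NE4. Ppargc1b and Prkaa2 did not differ beyond their spread (mean log2 ratio 0.95, adjusted p = 0.257, exact permutation test, n = 10), nor did Prkaa2 and Prkag3 (0.44, adjusted p = 0.361, exact permutation test). Prkag3 exceeded Ppargc1a by a mean log2 ratio of 1.17 (adjusted p = 0.0402, exact permutation test), and this call was lost without E1, E2, E3, E5, NE1, NE3 or NE4 (adjusted p of 0.0527 to 0.0804, exact permutation test). Without NE1, Prkaa2 exceeded Prkag3 (mean log2 ratio 0.82, adjusted p = 0.0301, exact permutation test).

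The coefficient of variation over the 10 tumors split the group further. It was 7.52% to 10.6% for Stk11, Prkag2, Prkag1, Prkab1 and Prkaa1, then 38.7% for Ppargc1b, 62.0% for Prkab2, 195% for Ppargc1a, 223% for Prkaa2 and 246% for Prkag3. It was 206% for Acta1 and 241% for Ckm. With NE4 included, the 3 most variable genes of the group thus had coefficients near those of the muscle references. In the other 9 tumors Ppargc1a ran from 0.0202 to 0.130 FPKM, Prkag3 from 0.0127 to 0.539 and Prkaa2 from 0 to 1.31. Acta1 ran from 1.07 to 800 FPKM and Ckm from 0.0149 to 73.0 in these 9. The coefficient was not computed without NE4, so that how far the likeness in spread rested on NE4 was not tested.

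To ask which genes followed muscle reads, a slope was fitted for every gene on the muscle level, the mean log2(CPM + 1) of Acta1 and Ckm, beside the group (quasi-likelihood test of edgeR, FDR by Benjamini-Hochberg). A slope of 1 means that a gene doubled with each doubling of the muscle level. Of the 13517 genes left by the low-count filter, 637 (4.71%) were called with a positive and 158 (1.17%) with a negative slope at an FDR of at most 0.05. Of the 10 genes described here 8 passed this filter. Prkag3 and Ppargc1a did not, and their slopes come from the same fit without the filter, over 17925 genes. Prkaa2 (slope 0.96, standard error 0.049, FDR 5.13e-07) and Prkab2 (0.16, standard error 0.037, FDR 0.0351) were called positive among the 8, and Prkag3 (0.78, standard error 0.104, FDR 0.000912) and Ppargc1a (0.49, standard error 0.085, FDR 0.00623) in the unfiltered fit. None of the group was called negative.

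**Figure D2:**
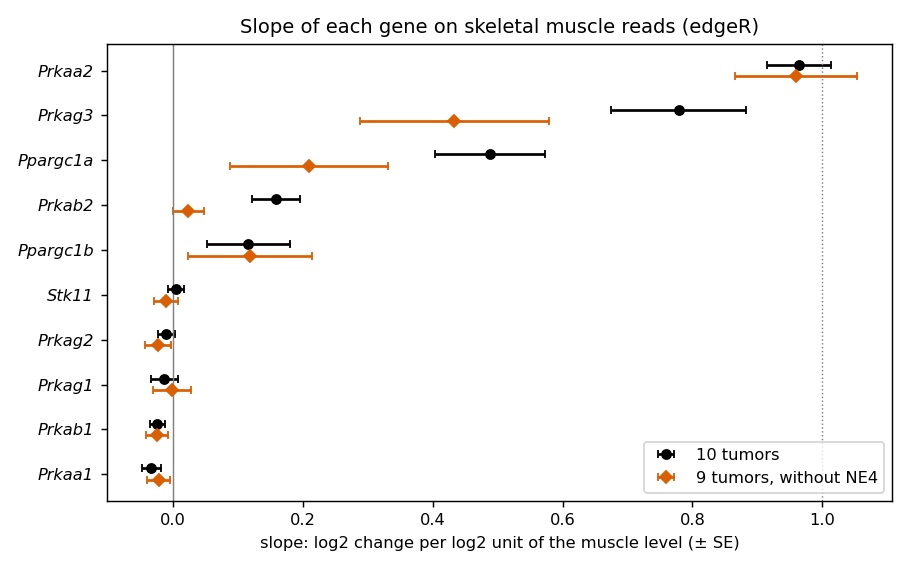
Slope of each gene on the muscle level with its standard error, in log2 units of the gene per log2 unit of muscle, for all 10 tumors (black) and for 9 tumors without NE4 (orange). The dotted line marks a slope of 1, and only Prkaa2 stays beside it without NE4.

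NE4 decided most of these calls. Without it, Prkaa2 kept its slope (0.96, standard error 0.094, FDR 0.00046), whereas Prkag3 had 0.43 (standard error 0.145, FDR 0.332), Ppargc1a 0.21 (standard error 0.121, FDR 0.623) and Prkab2 0.02 (standard error 0.024, FDR 0.771), and 173 of 13562 genes (1.28%) were called positive. Without E4 or NE5 the slope of Prkab2 stayed at 0.16 and the FDR was 0.0596 and 0.0600, just past the threshold. With limma-voom, limma-trend or the replicate block its slope was 0.13 to 0.15 and not called. Ppargc1a was not called with these 3 either (FDR of 0.0618 to 0.0774), nor was Prkag3 with limma-trend (FDR 0.0556).

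The slopes of the other members were near 0. They were -0.03 for Prkaa1 (standard error 0.014, FDR 0.187), -0.02 for Prkab1 (standard error 0.011, FDR 0.232), -0.01 for Prkag1 and Prkag2, and 0.0044 for Stk11. Ppargc1b had a slope of 0.12 (standard error 0.064, FDR 0.302), so that its place was not settled by this test. The median slope over all genes tested was -0.0018.

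**Figure D3:**
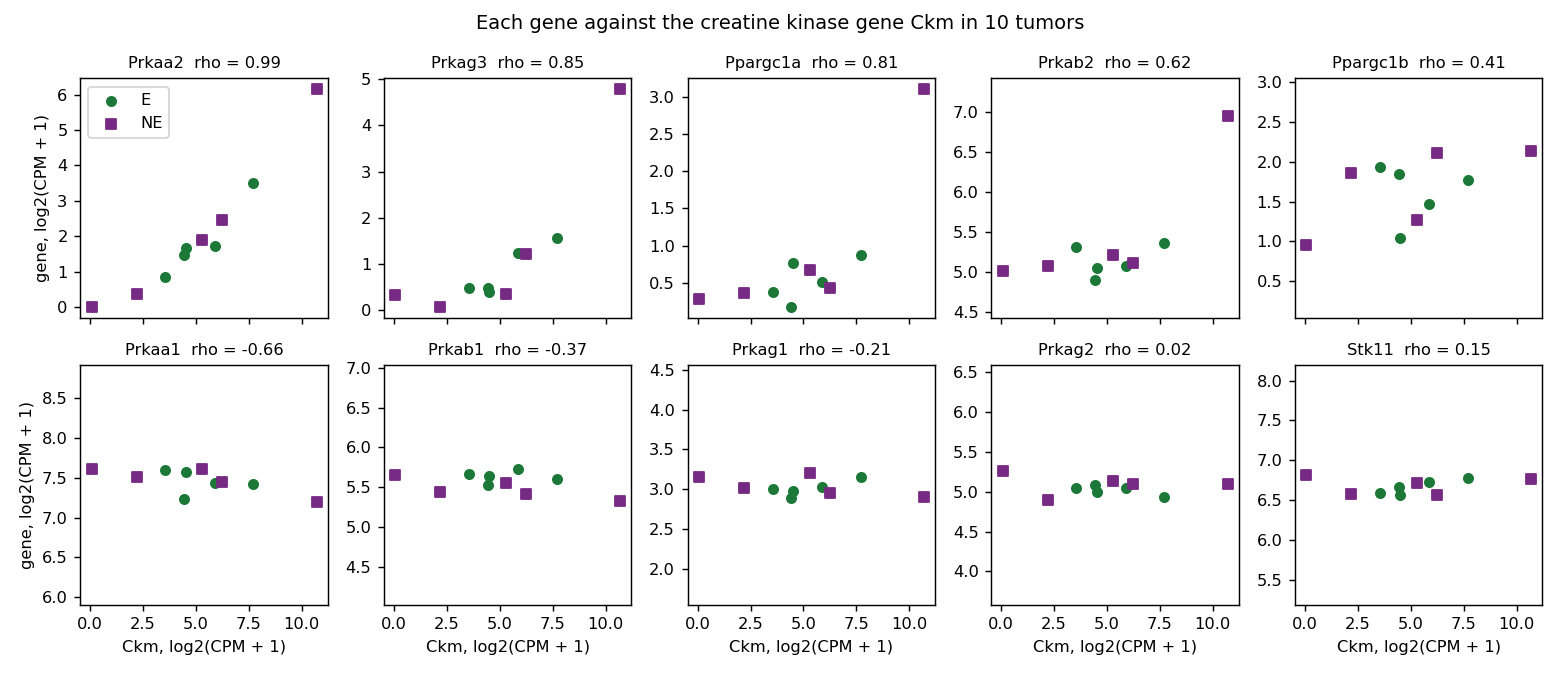
Each gene against Ckm over the 10 tumors, both as log2(CPM + 1), with green circles for E and purple squares for NE and Spearman's rho above each panel. Prkaa2 climbs across the whole range of Ckm, Prkag3, Ppargc1a and Prkab2 are high in NE4, and the 5 genes of the lower row stay flat.

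Correlations across the 10 tumors, on log2(CPM + 1) and without a model, separated the genes in a similar way. In total, 20 relations of a gene with Acta1 or Ckm were computed, and 5 passed an adjusted p of 0.05 by Pearson's r. Prkaa2 correlated with Ckm with r = 0.957 (permutation p = 1e-05, the smallest that 100000 permutations can give, adjusted 0.0002) and rho = 0.988 (permutation p = 1e-05, adjusted 0.0001), and r was 0.968 without NE1 and NE4, the tumors farthest from the median of Ckm. Prkag3 correlated with Ckm with r = 0.837 (permutation p = 0.00025, adjusted 0.0025) and rho = 0.855 (permutation p = 0.00293, adjusted 0.0146), and r was 0.896 without both tumors. For Ppargc1a the values were r = 0.775 (permutation p = 0.00266, adjusted 0.0133) and rho = 0.806 (permutation p = 0.0069, adjusted 0.023), and r was 0.591 without them. For Prkab2 they were r = 0.734 (permutation p = 0.0115, adjusted 0.046) and rho = 0.624 (permutation p = 0.0609, adjusted 0.122), and r was 0.350 without them, so that the relation of Prkab2 rested on these tumors. Without NE4 alone, r with Ckm was 0.787 for Prkag3 (adjusted p = 0.0697, permutation test), 0.636 for Ppargc1a (adjusted p = 0.257) and 0.440 for Prkab2 (adjusted p = 0.421). Without E2, r of Ppargc1a was 0.801, no lower than with all tumors, at an adjusted p of 0.0674 (permutation test). Without NE1, 10 relations passed, among them those of Stk11 (r = 0.728 with Ckm and 0.741 with Acta1, adjusted p = 0.0432 each, permutation test), whose r with all tumors was 0.202 and 0.057. Prkaa1 had the most negative relation (r = -0.665, permutation p = 0.0355, adjusted 0.102, rho = -0.661, permutation p = 0.0448, adjusted 0.112, and r = -0.246 without both tumors). Without E5 this r was -0.837 and passed (adjusted p = 0.0205, permutation test). With Acta1, r was 0.892 for Prkaa2 (permutation p = 0.00099, adjusted 0.0066), 0.740 for Prkag3 (permutation p = 0.0332, adjusted 0.102), 0.686 for Ppargc1a (permutation p = 0.0713, adjusted 0.159) and 0.647 for Prkab2 (permutation p = 0.101, adjusted 0.184). Acta1 and Ckm ranked the 10 tumors in the same order, so that rho with Acta1 had to equal rho with Ckm. It was 0.988, 0.855, 0.806 and 0.624 for these genes in turn. Prkaa2, Prkag3 and Ppargc1a passed by rho (adjusted p = 0.0001, 0.0146 and 0.023, permutation test), and Acta1 adds no separate test by rho.

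On the linear scale, straight lines of FPKM on the FPKM of Ckm describe how each gene moved with this muscle gene. For Prkaa2 the intercept was 0.0887 FPKM (standard error 0.0280) and the slope 0.0153 FPKM per FPKM of Ckm, and without NE4 the slope was 0.0173. Continued to the Ckm of NE4, the line of the other 9 tumors gave 9.42 FPKM, and 8.36 were measured. For Prkag3 and Ppargc1a this line gave 3.95 and 0.657 FPKM where 6.84 and 1.09 were measured, so that NE4 lay above it for both. Prkab2 had an intercept of 6.19 FPKM (standard error 0.191) and a slope of 0.0307, which became 0.0210 (standard error 0.0084) without NE4. For Prkab2 the line of the other 9 tumors gave 17.7 FPKM where 22.9 were measured. Nearly the whole level of Prkab2 in the 9 other tumors thus stood at the intercept, whereas the intercept of Prkaa2 was small against its level in E2 and NE4. These lines were chosen after the values were seen and carry no test.

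The same pattern appears when each gene is given as a share of the summed FPKM of its subunit. Prkaa2 held 0 to 3.40% of the α subunit RNA in the 9 tumors other than NE4 (median 0.681%) and 21.9% in NE4. Prkab2 held 27.3% to 33.7% of the β RNA (median 31.7%) and 65.4% in NE4. Prkag3 held 0.167% to 6.03% of the γ RNA (median 1.29%) and 47.1% in NE4, while Prkag2 held 52.3% to 62.4% (median 59.5%) and 33.5% in NE4. Ppargc1a held 2.94% to 28.2% of the PGC-1 RNA (median 12.1%) and 57.4% in NE4. Within each AMPK subunit, the largest share outside NE4 was thus that of Prkaa1, Prkab1 and Prkag2. None of the 5 shares passed a test between E and NE (exact two-sided permutation test, 5 against 5, p of 0.310 to 0.881, adjusted 0.881 each). Without NE4 the mean share of Prkaa2 was 1.15 ± 1.27% in E (SD, n = 5) and 0.598 ± 0.698% in NE (SD, n = 4).

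**Figure D4:**
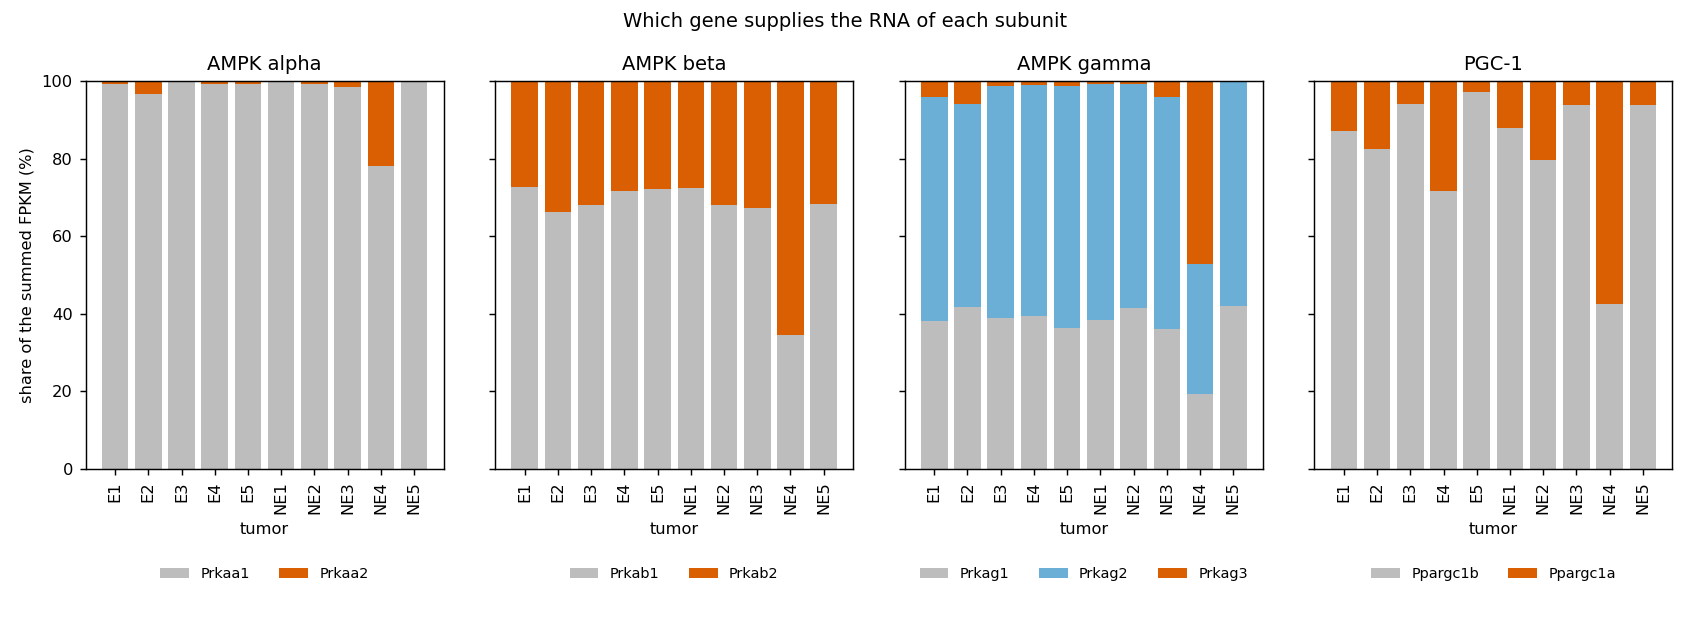
Share of each gene in the summed FPKM of its subunit or coactivator family, in percent, as stacked bars for each of the 10 tumors. The orange parts, Prkaa2, Prkab2, Prkag3 and Ppargc1a, are largest in NE4, at 21.9%, 65.4%, 47.1% and 57.4%.

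The comparison of E with NE asked whether voluntary running changed these genes in the tumor. No gene of the group passed this test. Across all genes, 0 of 13517 (0.0%) changed by a factor of 2 or more at an FDR no larger than 0.05 (edgeR's quasi-likelihood test), 657 had an unadjusted p of at most 0.05, and DESeq2 called 0 with and 3 without the fold change. Prkab1 had the smallest p of the group. In E it was higher by 0.16 on the log2 scale (edgeR, standard error 0.073, FDR 0.897), in 21 of 25 pairings of an E with an NE tumor, and the exact two-sided permutation test for this gene alone gave p = 0.0635 (smallest possible 0.00794, 12 genes tested with the muscle references). The log2 fold changes of Prkaa1, Prkag1, Prkag2 and Stk11 lay between -0.08 and -0.03, with standard errors of 0.066 to 0.114, and that of Ppargc1b was -0.13 (standard error 0.39).

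The 4 genes with a positive slope had negative fold changes with wide errors. These were -2.17 for Prkaa2 (standard error 1.46, FDR 0.897), -0.57 for Prkab2 (standard error 0.381, FDR 0.897) and, without the filter, -2.66 for Prkag3 (standard error 1.40, FDR 0.820) and -1.88 for Ppargc1a (standard error 1.01, FDR 0.820). Without NE4 all 4 turned positive, at 0.91 (standard error 1.07), 0.05 (standard error 0.101), 0.88 (standard error 0.819) and 0.42 (standard error 0.541), again without a call. With the muscle level in the model, 0 of 13517 genes (0.0%) were called between E and NE by edgeR, the smallest FDR being 0.0595 (1110 genes at an unadjusted p of at most 0.05, and 6 called by DESeq2). In that fit the log2 fold change of Prkaa2 was 0.03 (standard error 0.194), that of Prkab2 -0.48 (standard error 0.232), that of Prkag3 -0.69 (standard error 0.701), that of Ppargc1a -0.91 (standard error 0.559) and that of Prkab1 0.17 (standard error 0.063, FDR 0.522). The muscle references passed no test between the groups either, with exact permutation p = 0.730 for Acta1 and 0.889 for Ckm (5 against 5).

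**Figure D5:**
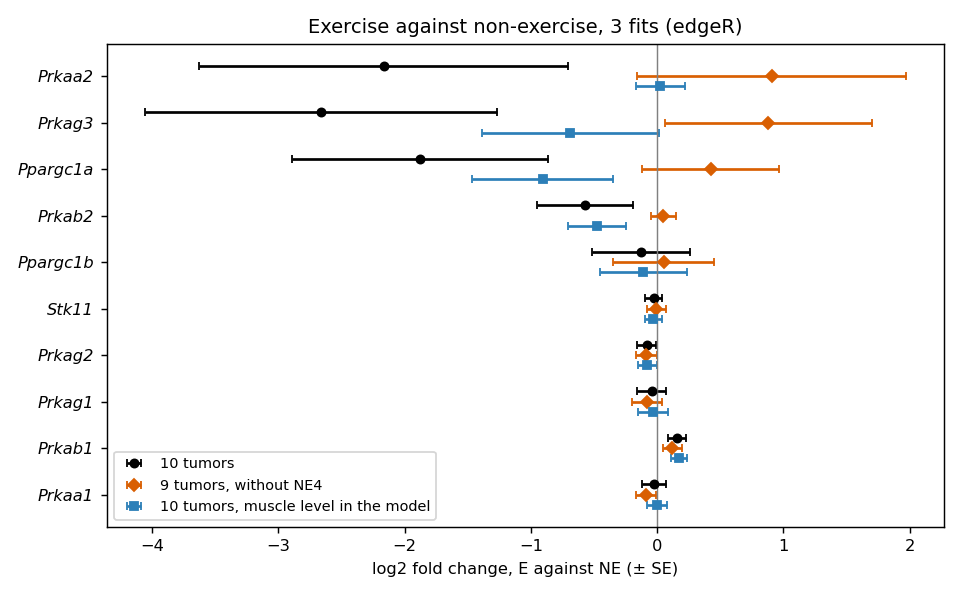
Log2 fold change of E against NE for each gene with its standard error, for all 10 tumors (black), 9 tumors without NE4 (orange) and 10 tumors with the muscle level in the model (blue). The fold changes of Prkaa2, Prkag3 and Ppargc1a are negative with all tumors and positive without NE4, and those of the 5 steady genes stay near 0.

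Of all genes tested, those whose log2(CPM + 1) was most like that of a gene described here over the 10 tumors are given as a description. Since they were picked as the highest among 13517 genes, their r is high by selection and was not tested. For Prkaa2 they were Sox6, Mlip, Sh3bgr, Mylk2, the skeletal muscle myosin light chain kinase, and Lrrc2, with r from 0.992 to 0.996, and from 0.977 to 0.989 without NE4. For Prkag3 they were Reep1, Popdc2, Trim54, Camk2a and Cox8b, a subunit of cytochrome c oxidase in muscle (r from 0.985 to 0.988, and 0.902 to 0.931 without NE4). For Prkab2 they included Slc25a12, Fundc2, Slc25a4 and Cfl2 (r from 0.984 to 0.987, and 0.677 to 0.837 without NE4). For Ppargc1a they were Kcnc1, Coq10a, Sar1b, Phka1 and Ppp1r14c (r from 0.979 to 0.986, and 0.725 to 0.884 without NE4). The likeness of Prkaa2 was thus nearly as close without NE4, and that of Prkab2 and Ppargc1a was looser. The steady genes were most like other genes, Prkaa1 like Cbx5 and Rad21 (r = 0.977 and 0.965), Prkab1 like Sprtn and Prkar1a (0.966 and 0.964), Prkag1 like Tpra1 and Cep41 (0.918 and 0.904), Prkag2 like Id3 and Coprs (0.932 and 0.921) and Stk11 like Lamb2 and Rhot2 (0.940 and 0.939). For Ppargc1b they included Cst3 (0.885).

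The surrounding pathway was read from lists of genes. No gene of the 5 lists below was called between E and NE. Among the other upstream factors of AMPK, 7 of 7 genes passed the filter and 1 had a positive slope on muscle reads, Stradb, a pseudokinase partner of LKB1 (0.15, standard error 0.029, FDR 0.0126). Among 15 substrates of AMPK, all of which passed, 2 had a positive slope. These were Acacb, the acetyl-CoA carboxylase of oxidative tissues (0.44, standard error 0.073, FDR 0.00548), and Tbc1d4, a regulator of glucose transporter traffic (0.07, standard error 0.014, FDR 0.0225). Of 12 AMPK-related kinases 11 passed the filter, none had a positive slope and Sik3 had a negative slope (-0.03, standard error 0.0079, FDR 0.0465). These were 14.3% of the upstream factors and 13.3% of the substrates that passed, against 4.71% of all genes, and the median slopes were 0.030 and -0.00071. None of the 3 positive slopes was called without NE4 (FDR of 0.437 to 0.525), and without NE1 the slope of Tbc1d4 was again 0.07 at an FDR of 0.0769. Sik3 kept a slope of -0.03 without NE4 at an FDR of 0.341. This 1 negative call in 11 genes stands beside 1.17% of all genes.

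Among the partners of PGC-1, 14 of 14 genes passed and 2 had a positive slope (14.3%, against 4.71% of all genes). These were Mef2c, a muscle transcription factor (0.25, standard error 0.033, FDR 0.00109), and Esrra, the estrogen-related receptor α (0.07, standard error 0.014, FDR 0.0241). Without NE4, Mef2c was still called (slope 0.14, FDR 0.0337), while Esrra had 0.04 without NE4 (FDR 0.476) and again 0.07 without NE1 (FDR 0.103). The median slope of the partners was -0.0025. Among 15 target genes of PGC-1, 13 passed and 5 had a positive slope (38.5%, against 4.71% of all genes). Cpt1b, with at most 12 reads in any tumor, and Ucp3, with at most 607, did not pass. The steepest were Pdk4, which restrains pyruvate oxidation (0.97, standard error 0.057, FDR 1.62e-06), Slc2a4, the insulin-regulated glucose transporter of muscle and fat (0.96, standard error 0.084, FDR 4.48e-05), and Fndc5, the precursor of irisin (0.90, standard error 0.055, FDR 2.16e-06). These 3 were also called without NE4 (slopes of 0.69 to 1.06, FDR of 0.000192 to 0.0257), and with all tumors their slopes were close to that of Prkaa2. The other two, Perm1 (0.24) and Cycs, the gene of cytochrome c (0.07), were not called without NE4 (FDR 0.726 and 0.460). The median slope of the PGC-1 targets was 0.034, and that of all genes tested was -0.0018.

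By the smallest p between E and NE, the genes of these lists were Camkk2 and Cab39, Tbc1d1 and Acaca, Mark1 and Nuak1, Pprc1 and Pparg, and Tfb2m and Cycs. Camkk2, the calcium-dependent kinase that also activates AMPK, differed by 0.15 on the log2 scale (standard error 0.054) and Cab39, the scaffold of LKB1, by -0.17 (standard error 0.075). The other 8 lay between -0.49 (Pparg) and 0.50 (Mark1), and the FDR was 0.897 for each of the 10 (edgeR).

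Markers of other cell types were read beside the muscle level. All 11 fast skeletal muscle genes that passed the filter, of 12, had a positive slope, with a median of 1.04 (Acta1 and Ckm, which define the level, are among them), and 10 did without NE4. The twelfth was Tnnc2. All 6 slow skeletal muscle genes were called with a positive slope (0.47 to 1.18). Without NE4 their slopes were 0.35 to 1.40 with larger errors, and 1 of them, Tnnt1, passed the FDR. Of 6 cardiac genes 4 passed and 1, Actc1, had a positive slope, while Nppa, a defining gene of the atrium, was at 0 in all 10 tumors. Of 6 adipocyte genes 4 passed and 3 had a positive slope, Adipoq (0.63, FDR 0.0195), Cidec (0.51, FDR 0.0471) and Fabp4 (0.21, FDR 0.0258). Without NE4 the slopes were 0.53, 0.41 and 0.08, and none was called (FDR of 0.409 to 0.609). The summed level of the adipocyte list was 10.7 to 29.9 CPM in E and 8.44 to 87.7 CPM in NE, and Adipoq, Plin1, Cidec, Lep and Retn each were at 0 in at least 1 tumor. Fat reads thus moved with muscle reads over the 10 tumors, and their part in the levels of Prkab2, Prkag3 and Ppargc1a was not tested. Of the brown fat genes, Ucp1 had at most 2 reads in any tumor. Of 6 macrophage genes 1 was called with a positive slope, Lyz2 (0.17, standard error 0.030, FDR 0.0083), also without NE4. Adgre1, Csf1r and C1qa fell short of the call with slopes of 0.12 to 0.16 (FDR of 0.0706 to 0.0793), which were 0.14 to 0.19 without NE4. Cd68 and Cd14 had slopes of 0.06 and -0.01, and the median of this list was 0.14. None of 5 neutrophil, 5 endothelial and 4 tested smooth muscle genes was called with a positive slope. Of the smooth muscle genes, Myh11 fell just short (0.24, standard error 0.064, FDR 0.0527), and its slope was 0.13 without NE4 (FDR 0.668). Cnn1, Smtn and Acta2 had slopes of -0.07, -0.03 and 0.09.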

How the data were processed

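The authors extracted RNA from 10 4T1 tumors, prepared paired-end libraries with a TruSeq RNA kit, used Hisat2 for the alignment and Stringtie for expression. The deposited table gives, for every gene in every tumor, a read count in whole numbers and its FPKM. The counts deposited by the authors were not normalized. The FPKM deposited by the authors are the same counts divided by gene length and library total (largest relative deviation 3.77e-14), without a TMM factor. How the counts were made is not given in the sources used here. The methods name a rat assembly, while the identifiers are those of mouse, and no build is named for the table. Only 514 of 21851 genes matched by identifier have their GRCm38 start and end, so that coordinates printed are those of GRCm38 by identifier. With the TruSeq kit not described as stranded, reads of overlapping genes on both strands cannot be told apart.

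Counts were analysed with edgeR 4.0.16 in R 4.3.3 (TMM, filterByExpr by group, glmQLFit, glmQLFTest, Benjamini-Hochberg adjustment over all genes tested), as E against NE (called at a 2-fold or larger change with an FDR no larger than 0.05) and with the muscle level as a covariate (slope called at an FDR of at most 0.05). Positive log2 fold changes are higher in E. Levels of single genes, shares and the order were tested with exact permutation tests, and correlations with 100000 permutations (scipy 1.17.1, Python 3.11.15, pseudocount 1 CPM). Alternatives were DESeq2 1.42.0, limma-voom and limma-trend (limma 3.58.1), other normalizations, filters, covariates and thresholds, the replicate number as a block, and leaving out each tumor. Linear fits on the FPKM of Ckm were added after seeing the data. The statistics were tested on simulated data. For the fits, the most variable genes were made less variable there, and only genes with more reads in total than Ppargc1a and Ppargc1b were changed.

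The members and lists were chosen with earlier results of these data known. Named genes are the members, Acta1 and Ckm, in each pathway list the genes called between E and NE (with none called, the 2 with the smallest p) and up to 3 with the largest called slope, and for each member the genes most like it (5 where its slope was called, otherwise 2), of which 2 genes are not reported here. Markers of other cell types and Sik3 and Perm1 were named after their values were seen. Depth was 15045613 to 23092251 reads per tumor, and intervals cover counting error only, since copies made by PCR were not told from independent molecules. Nothing in the labels says more of the replicates than that they are separate tumors, and p-values measure the spread between them. Tumor sizes, cell culture and human tumors were not analysed here.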

Additional observations from a re-analysis of the deposited data

Results flagged for a closer look

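Tumors are listed here that lay far from the rest of their group, by Dixon's ratio of the gap to the nearest tumor and the whole range (limit 0.71 at 5 values). This was so in 14 of 34 groups, where about 1 in 20, or 1.7, would arise by chance if the values were normally distributed. FPKM and shares were taken here without a log, so that this rate need not hold for them. The groups share tumors and their genes move together, and the 14 are therefore not independent. NE4 was the highest of NE by 8.36 FPKM of Prkaa2, 22.9 FPKM of Prkab2, 6.84 FPKM of Prkag3, 1.09 FPKM of Ppargc1a, 4023 FPKM of Acta1 and 540 FPKM of Ckm. Accordingly its shares within a subunit stood apart, with 21.9% for Prkaa2, 65.4% for Prkab2, 47.1% for Prkag3 and 57.4% for Ppargc1a as the highest of NE and 33.5% for Prkag2 as the lowest. E2 was the highest of E by 1.31 FPKM of Prkaa2, a Prkaa2 share of 3.40% and 73.0 FPKM of Ckm. Prkaa1, Prkab1, Prkag1, Stk11 and Ppargc1b gave no such value in either group.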

How the results depend on the processing

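Of the results, no call between E and NE was made for a member under any alternative, and the slope of Prkaa2 was called under each one that could be fitted (its lowest tumors fail a minimum of 10 reads). Against 637 genes with a positive slope, 349 were called with at least 10 reads in every tumor, 356 with limma-voom, 1221 with DESeq2 and 1044 with the replicate block, and 173 to 983 when 1 tumor was left out (173 without NE4, 983 without E5). Against 4 members, 1 was called with at least 10 reads in every tumor (which removes the low genes) and with limma-trend, 2 with limma-voom and 2 with the replicate block, and 1 to 4 when 1 tumor was left out. Against 0 genes between E and NE, the fold change with an unadjusted p gave 56, and the muscle level with the replicate block gave 2. Beside the muscle level DESeq2 gave 6 and the replicate block 2. Against 5 correlations, the pseudocount of 0.1 CPM left 2, and leaving out 1 tumor gave 2 (without NE4) to 10 (without NE1), with 3 without E2. On log2(FPKM + 1), Prkaa2 with Acta1 had an adjusted p of 0.0575. The cause was not tested.

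Log2 fold changes that changed sign were those of Prkaa1 with the total count alone (0.0018), limma-trend (0.0077), the total count as a covariate (0.016) and the muscle level with the block (0.0038), of Stk11 with the total count alone (0.0052), limma-trend (0.0059) and limma-voom (0.035), of Prkaa2 with limma-voom (1.08), the replicate block (0.39), the muscle level (0.025) and the muscle level with the block (0.12), of Prkag3 with limma-voom (0.89) and the replicate block (0.15), and of Ppargc1a with limma-voom (0.062). So did the slopes of Prkag1 (0.0047) and Prkag2 (0.0067) with limma-voom and of Stk11 with the total count alone (-0.0015), and r of Stk11 with Acta1 on log2(FPKM + 1) (-0.070). Without 1 tumor, log2 fold changes ranged from -2.17 to 0.42 for Ppargc1a, -0.33 to 0.051 for Ppargc1b, -0.088 to 0.025 for Prkaa1, -3.14 to 0.91 for Prkaa2, -0.71 to 0.050 for Prkab2, -0.086 to 0.0053 for Prkag1, -3.17 to 0.88 for Prkag3 and -0.057 to 0.0067 for Stk11. Slopes ranged from -0.023 to 0.010 for Prkag2 and -0.011 to 0.030 for Stk11. With Acta1 and Ckm, r ranged from -0.612 to 0.339 and from -0.523 to 0.325 for Prkag2 and from -0.182 to 0.741 and from -0.037 to 0.728 for Stk11. Differences of shares, E minus NE in percentage points, ranged from -10.6 to 2.29 for Ppargc1a, -4.92 to 0.555 for Prkaa2, -0.709 to 6.13 for Prkag2 and -10.4 to 1.32 for Prkag3, each changing sign without NE4.

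The study speaks of matched pairs, but no source used here says which tumors were matched or that the replicate number marks a pair. Same-numbered tumors correlated with -0.256 to 0.321 in their deviations and only E5 correlated best with its own number, so that the number was not taken as a pairing and a real pairing could not be tested. With the replicate block the slopes were 0.92 for Prkaa2, 0.80 for Prkag3, 0.35 for Ppargc1a (FDR 0.0618) and 0.13 for Prkab2 (FDR 0.166). Depth limits Ppargc1a, Prkag3 and Prkaa2, which had 2, 1 and 0 reads in their lowest tumors.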

Other observations

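The tumor with the fewest muscle reads, NE1, shows the levels of the muscle-rich isoforms where muscle is nearly absent. It had 1 read of Ckm and 38 reads of Acta1, and it still had 735 reads of Prkab2, 6 of Prkag3 and 5 of Ppargc1a beside 0 of Prkaa2. NE5, with 75 reads of Ckm, had 689 reads of Prkab2, 1 of Prkag3, 6 of Ppargc1a and 6 of Prkaa2. The Wilson intervals of Prkag3 in these libraries overlapped, from 0.119 to 0.567 CPM of the total count in NE1 and from 0.00825 to 0.265 in NE5.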
